A study of Mus musculus with 40 samples.

Results

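Colonic mucosa of mice colonised for 21 days with Escherichia coli CEC was set against that of mice colonised for 21 days with Escherichia coli Nissle. All 20 samples of these mono-associated groups were used, 10 of each strain, out of 40 in the series, and the comparison covers the 214 of 224 assays with a measured value in at least 5 samples of each strain. The other samples are 10 from germ-free mice, the control of the series, and 10 from conventional mice. They enter the estimate of the spread and stand beside the strains as levels. The labels used here state no mouse strain, sex or age, and no genotype or drug treatment is named for any group. Per the design text, equal amounts of RNA were pooled before the measurement, although 40 separate samples are given. Whether a sample is 1 mouse is therefore not settled, so the p-values reflect no more than sample-to-sample spread, part of which may be technical.

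Mono-association means that a formerly germ-free animal carries a single bacterial strain. The sources used here give no housing unit or batch, so these cannot be told apart from the strain. E. coli is a facultative anaerobe that is among the early colonisers of the mammalian gut, and the Nissle strain is known as a probiotic. Colonic mucosa holds a lining epithelium of absorptive, mucus-secreting and hormone-secreting cells above connective tissue rich in immune cells. In such a mixture, fewer cells of a type and less RNA per cell cannot be told apart.

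Each assay is a TaqMan primer and probe set read on an OpenArray card. Its threshold cycle (Ct) is the PCR cycle at which fluorescence passes a set level, and a Ct lower by 1 cycle stands for roughly 2 times the template. Relative expression is given here in log2 units as the sample's median Ct minus the assay's Ct, so a difference of 1 is 2-fold. The sample median was taken over the 203 assays in which no sample had a Ct of 40, which stands for an undetermined well. The files and the annotation used here do not pair assay IDs with genes. Assays are therefore given by ID, no gene group or cell type marker could be described, and the tissue label could not be set against its markers. In an ID, an ending that starts with m marks a probe across an exon junction, s an assay within 1 exon, and g an assay that may also read genomic DNA.

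Subtracting each sample's own median sets the middle of the panel near 0 in both strains, so the median difference says nothing of a shift of the whole panel. The median difference between CEC and Nissle (CEC minus Nissle) over the 214 assays was 0.03 log2 units, with quartiles of -0.27 and 0.33, and 109 assays were higher and 105 lower after CEC by any amount. Without normalization the median was -0.38. In 124 assays (57.9%) the 95% interval of the difference lay wholly within 2-fold. The tightest of these were Mm00433023_m1, with 0.24 ± 0.255 after CEC and 0.24 ± 0.194 after Nissle (SD, n = 10 each), and Mm00481069_m1, with -0.94 ± 0.222 and -0.96 ± 0.228. The interval for Mm00433023_m1 ran from -0.25 to 0.25 log2 units and that for Mm00481069_m1 from -0.23 to 0.27, so any difference in these assays was at most 1.19-fold and 1.21-fold within the interval. In the other 90 assays, the 7 that passed the test among them, the interval reached past 2-fold, so a difference of that size lay within it.

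**Figure D1:**
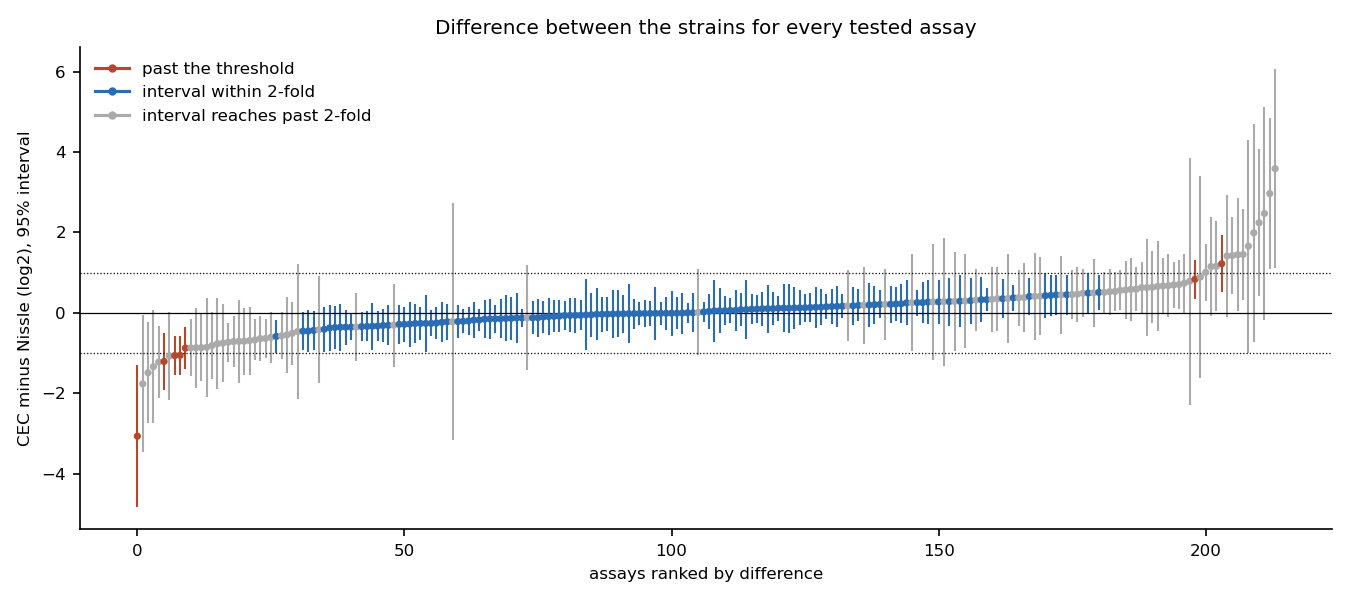
Difference in relative expression between CEC and Nissle (CEC minus Nissle, log2) for each of the 214 tested assays, ranked along the horizontal axis, with the 95% interval from the fit over all 4 groups; dotted lines mark 2-fold. The 124 blue assays have intervals within 2-fold, the 7 red assays passed the threshold, and the widest intervals lie at the right end.

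Between the strains 7 of the 214 assays (3.27%) passed the threshold, an adjusted p under 0.05 in limma's test fitted over all 4 groups. Of these, 5 (2.34%) were lower and 2 (0.935%) higher after CEC. The ranges of the strains overlapped in every tested assay, the 7 included. An unadjusted p under 0.05 was reached by 36 assays (16.8%), 19 higher and 17 lower after CEC. In a fit of the 20 mono-associated samples alone no assay passed (0.0%), the smallest adjusted p was 0.15 and 23 assays (10.7%) had an unadjusted p under 0.05 (limma). A permutation test of each assay over the same samples also passed none, with 0.0781 as the smallest adjusted p and 29 assays at an unadjusted p under 0.05. With weights that lower the influence of samples far from their group, 19 assays passed in the fit of 4 groups and 12 in the fit of 2 groups (limma). The fit of 4 groups takes its spread from germ-free and conventional samples too, and its median standard error was 0.27, against 0.30 in the fit of 2 groups.

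**Figure D2:**
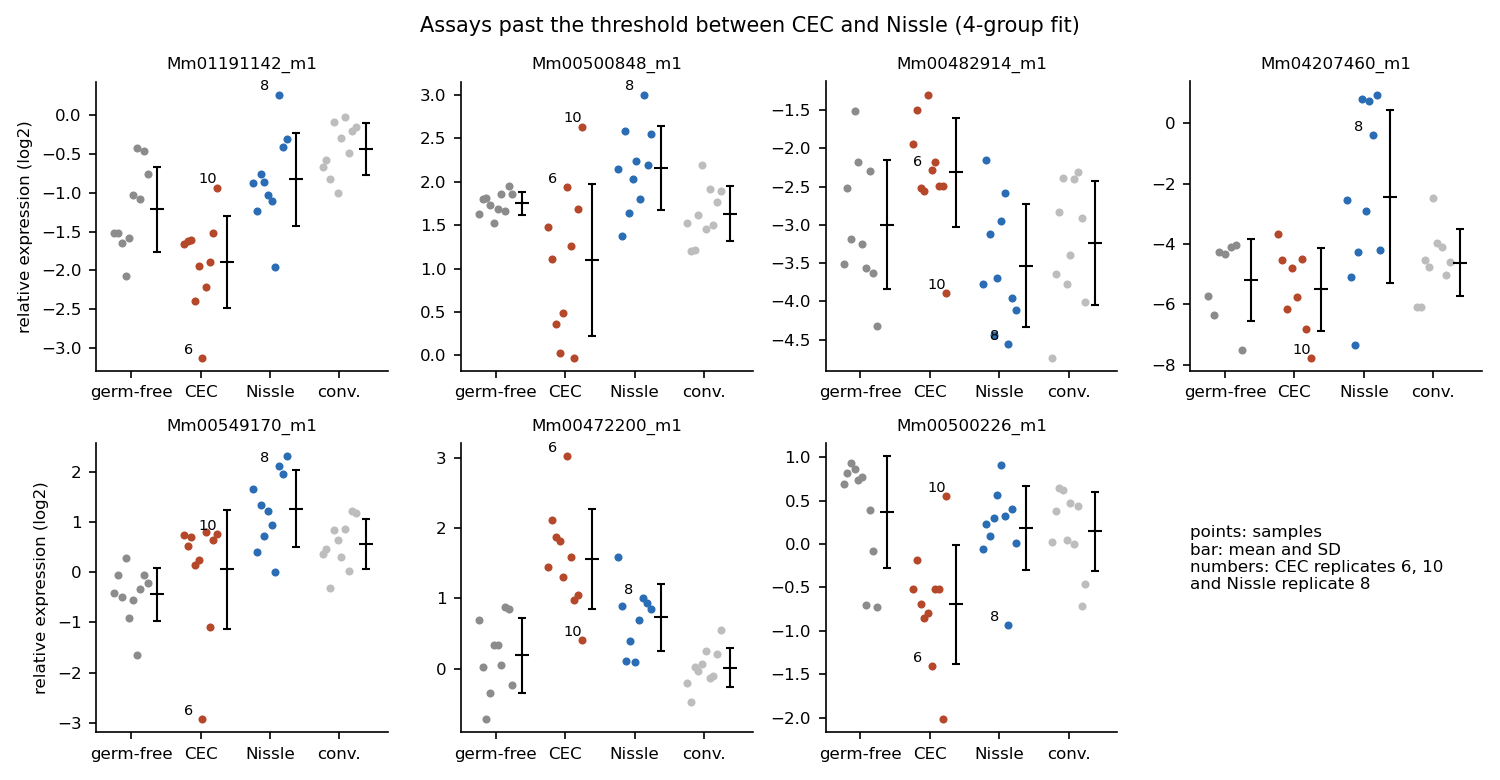
Relative expression (log2) of the 7 assays past the threshold, by group; each point is a sample, and the bar to the right of each group is its mean and SD. CEC and Nissle overlap in every panel, and CEC replicate 10 lies on the Nissle side of the middle in 6 of the 7.

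Mm01191142_m1 was 2.09-fold lower after CEC. CEC samples ran from -3.12 to -0.93 with a median of -1.78 log2 units, and Nissle samples from -1.96 to 0.26 with a median of -0.86. All 10 CEC samples lay below the Nissle mean, and 9 of 10 Nissle samples lay above the CEC mean. The lowest sample was CEC replicate 6 and the highest Nissle replicate 8. CEC minus Nissle came to -1.06, with 0.237 as its standard error (limma, adjusted p = 0.00694).

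Mm00500848_m1 was 2.08-fold lower after CEC and shared that adjusted p of 0.00694 (limma), with a difference of -1.06. CEC samples ran from -0.03 to 2.63 log2 units around a median of 1.18, and Nissle samples from 1.38 to 3.0 around 2.17. The CEC group was the more spread, with an SD of 0.876 against 0.479 after Nissle and 0.13 in germ-free samples. CEC replicate 10 was the only CEC sample above the Nissle mean. Its standard error was 0.237 in the fit of 4 groups and 0.311 in the fit of 2 groups.

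These 2 assays kept their calls when any 1 of the 40 samples was left out (limma, adjusted p up to 0.0251) and under every normalizer tried. In the fit of 2 groups the adjusted p was 0.15 for Mm01191142_m1 and 0.186 for Mm00500848_m1 (limma), and with the replicate number as a block it was 0.0573 and 0.222. In the fit of 2 groups with sample weights both passed (limma, adjusted p = 0.00842 each).

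The other 5 calls stood together at an adjusted p of 0.0439 (limma). Of these, Mm00549170_m1, Mm00500226_m1 and Mm04207460_m1 fall outside the rule for naming assays and are named after their values were seen. Mm00549170_m1 was 2.32-fold lower after CEC, with 0.06 ± 1.19 against 1.27 ± 0.766 log2 units (SD, n = 10 each). CEC replicate 6, at -2.93, lay far below the other CEC samples, which ran from -1.09 to 0.81, while Nissle samples ran from 0.00 to 2.32. Without CEC replicate 6 the assay was 1.84-fold lower and did not pass (limma, adjusted p = 0.0902). Mm00500226_m1 was 1.84-fold lower after CEC, with a median of -0.61 between -2.02 and 0.55, against 0.27 between -0.93 and 0.91 after Nissle. In this assay 9 of 10 samples of each strain lay on their own side of the other strain's mean, and the exceptions were CEC replicate 10 and Nissle replicate 8.

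Mm04207460_m1 differed most among the calls, at 8.4-fold lower after CEC. The 8 measured CEC samples ran from -7.77 to -3.65 log2 units with a median of -5.28. Nissle samples were split widely, from -7.36 to 0.95 with a median of -2.73: replicates 5, 7, 8 and 9 lay between -0.39 and 0.95 and the other 6 at or below -2.54. The values of CEC replicates 6 and 8 were treated as filled in, as set out under the processing, and were left out. With them as deposited the assay was 6.7-fold lower (limma, adjusted p = 0.0442), and with Ct above 30 as undetermined it was 12.3-fold lower. Of the strain samples that limit took out only Nissle replicate 3, the lowest Nissle sample. CEC replicate 10, the lowest CEC sample at -7.77, stayed in.

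The 2 assays that were higher after CEC were Mm00482914_m1 and Mm00472200_m1. Mm00482914_m1 was 2.33-fold higher, by 1.22 log2 units (standard error 0.348), with a median of -2.39 log2 units after CEC and -3.74 after Nissle. Apart from CEC replicate 10, at -3.89, CEC samples lay between -2.55 and -1.30, and Nissle samples ran from -4.56 to -2.15. Mm00472200_m1 was 1.78-fold higher, with 1.56 ± 0.715 in 10 CEC against 0.73 ± 0.473 in 9 Nissle samples (SD), and 5 CEC samples lay above the highest Nissle sample, at 1.59. The value of Nissle replicate 2 in this assay was treated as filled in and was left out. Both calls ended with other normalizers, which turned the split of calls from 2 higher and 5 lower to none higher. With the median of the 153 assays measured in all 40 samples, 5 assays passed and all were lower after CEC, and the adjusted p was 0.065 for Mm00482914_m1 and 0.0803 for Mm00472200_m1 (limma). With the mean of the 203 assays 5 passed, with the 10 most stable assays 3 and without normalization 6, again all lower. In the order of these 4 settings, Mm00482914_m1 was 1.15, 1.15, 1.35 and 0.79 log2 units higher after CEC. Mm00472200_m1 was 0.76, 0.78, 1.02 and 0.46 higher, against 0.83 as reported. Both differences were thus larger with the 10 most stable assays (limma, adjusted p = 0.0839 and 0.0528) and smaller with the others. The calls that were lower after CEC did not all hold either. Mm00500226_m1 did not pass with the mean of the 203 assays (limma, adjusted p = 0.0524). With the 10 most stable assays it did not pass (0.304), nor did Mm04207460_m1 (0.0699) and Mm00549170_m1 (0.0542).

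Each of these 5 calls ended when any of 26 to 28 of the 40 samples was left out, with adjusted p up to 0.119 (limma). Leaving out germ-free replicate 11, 21, 22 or 31, conventional replicate 1, 3, 4, 5, 7 or 8, any of CEC replicates 1 to 8, or Nissle replicate 4, 5, 6, 9 or 10 ended all 5, and Nissle replicate 1, 3 or 8 ended 4 of them. Over all assays, 2 to 4 calls were then left. None of the 5 passed in the unweighted fit of 2 groups (adjusted p from 0.15 to 0.2) or with the replicate block (0.0573 to 0.403). With sample weights in the fit of 2 groups, Mm00482914_m1, Mm00472200_m1 and Mm00500226_m1 passed (limma, adjusted p = 0.00872, 0.0105 and 0.00842), and Mm04207460_m1 and Mm00549170_m1 did not (0.0871 and 0.0644). The adjusted p of each of the 7 assays under these settings is drawn in the plot of settings.

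**Figure D3:**
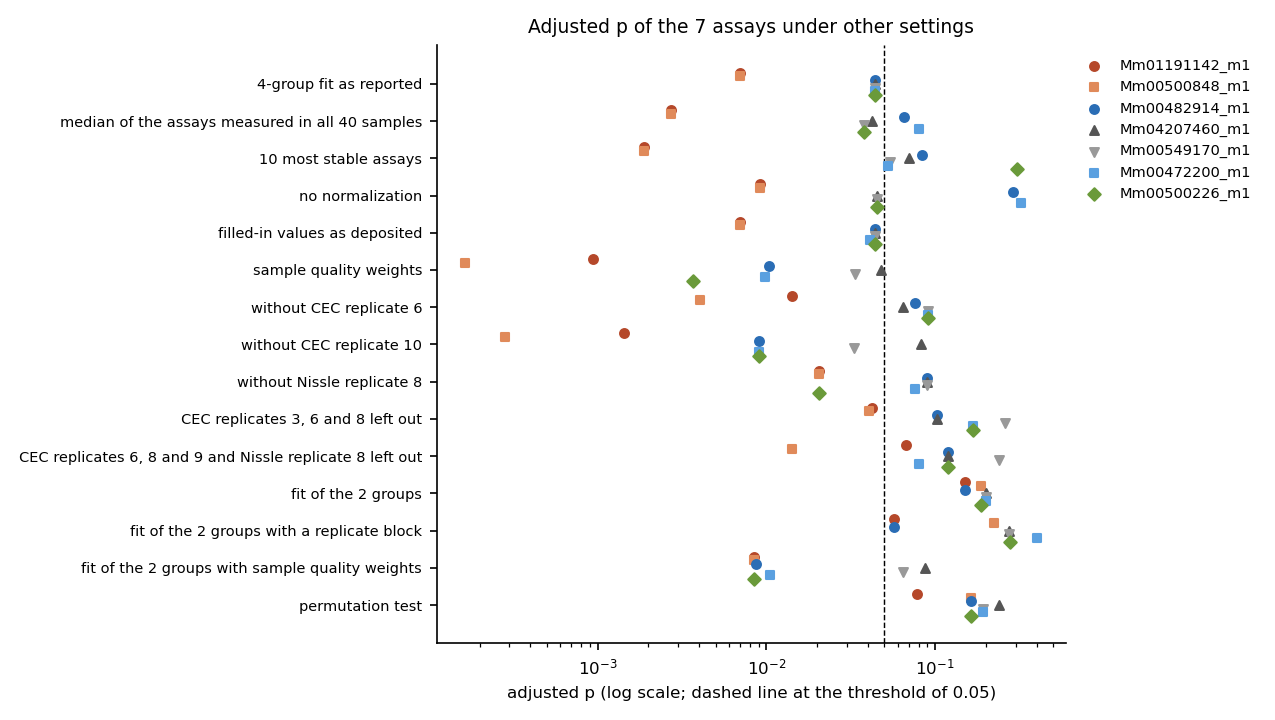
Adjusted p (horizontal, log scale) of the 7 assays under several settings (rows); the dashed line is the threshold of 0.05. Mm01191142_m1 and Mm00500848_m1 pass in the fits of all 4 groups, except that Mm01191142_m1 does not with 4 samples left out (0.0677), and no assay passes in the unweighted fits of 2 groups or the permutation test.

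Levels in germ-free mucosa were set beside the strains to show on which side each difference lay. The comparisons share the strain samples, and the values are given side by side only. Against germ-free, 18 of 213 assays (8.45%) passed after CEC and 14 of 215 (6.51%) after Nissle. Mm00549170_m1 averaged -0.44 ± 0.534 in germ-free samples (SD, n = 10), 1.71 log2 units below Nissle (limma, adjusted p = 0.000989) and 0.50 below CEC (0.371). Mm00472200_m1 averaged 0.19 ± 0.532 in germ-free samples, 1.37 below CEC (limma, adjusted p = 6.57e-05) and 0.54 below Nissle (0.192). Mm00500226_m1 averaged 0.37 ± 0.643 there, and its difference from germ-free was -1.07 after CEC (limma, adjusted p = 0.00403) and -0.19 after Nissle (0.713).

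For the remaining 4 calls neither strain passed against germ-free. Germ-free samples averaged -1.21 ± 0.546 in Mm01191142_m1 and 1.75 ± 0.13 in Mm00500848_m1 (SD, n = 10 each). CEC lay 0.68 and 0.65 log2 units below these means (limma, adjusted p = 0.0594 and 0.0731), and Nissle 0.38 and 0.40 above them (0.347 and 0.316). In Mm00482914_m1 germ-free samples averaged -3.0 ± 0.846, between CEC at -2.32 and Nissle at -3.53. In Mm04207460_m1 the 7 measured germ-free samples averaged -5.19 ± 1.36, which is 0.31 above CEC (adjusted p = 0.836) and 2.76 below Nissle (limma, adjusted p = 0.0562). Conventional mucosa, whose mice carry a full microbiota, was at -0.43 ± 0.332 in Mm01191142_m1, 1.63 ± 0.315 in Mm00500848_m1 and 0.02 ± 0.281 in Mm00472200_m1 (SD, n = 10 each). In the other calls conventional samples ran from -0.30 to 1.23 in Mm00549170_m1 and from -0.71 to 0.64 in Mm00500226_m1. They ran from -4.74 to -2.31 in Mm00482914_m1, and where measured from -6.10 to -2.46 in Mm04207460_m1.

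Differences of more than 2-fold were found in 23 assays, 14 higher and 9 lower after CEC, of which 5 passed. Over 4-fold were 5, and Mm04207460_m1 alone of these passed. The other 4 were all higher after CEC and are named because of this size, after their values had been seen. Mm00440616_g1 differed by 3.58 log2 units (standard error 1.22; limma, adjusted p = 0.104). Its CEC samples ran from -6.82 to 6.29 with a median of -0.01, and its 9 measured Nissle samples from -8.76 to -1.21 with a median of -4.24. Mm00441127_m1 differed by 2.96 (adjusted p = 0.0754), with CEC samples from -3.50 to 6.78 around a median of -0.61 and Nissle samples from -5.78 to -0.11 around -2.75. Mm00440616_g1 also ran from -6.25 to 0.82 in germ-free and from -4.60 to 3.24 in conventional samples. Mm00441127_m1 ran from -3.65 to 0.17 and from -2.90 to 3.43 there. Germ-free replicate 20 was low in both (-6.25 and -3.51) and conventional replicate 6 high in both (3.24 and 3.25). Whether these assays are separate observations was not tested.

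CEC replicate 6 was the highest of the CEC samples in all 4 of these assays. Mm01195718_m1 stood at 7.22 in that sample and between -5.35 and 0.47 in the other 9 CEC samples, while Nissle samples ran from -6.93 to -2.06. Its difference of 4.72-fold became 2.36-fold without the sample (limma, adjusted p = 0.199 and 0.324). In Mm01195718_m1 germ-free samples ran from -5.13 to -2.87 and conventional samples from -4.45 to -1.86. Mm00655850_m1 was at 9.13 in CEC replicate 6 and at 5.12 in CEC replicate 8, and between -2.93 and 3.27 in the others. In this assay Nissle samples ran from -4.17 to 2.02, germ-free samples from -14.89 to -2.55 and measured conventional samples from -8.36 to -3.63. Without CEC replicate 6 the fold fell from 5.54 to 3.1 in Mm00655850_m1, from 7.8 to 4.65 in Mm00441127_m1 and from 12 to 7.04 in Mm00440616_g1, none of which passed. CEC replicate 5 was the lowest CEC sample in Mm00441127_m1 and Mm00440616_g1, and both passed without it (adjusted p = 0.0432 each; 19.3-fold for Mm00440616_g1).

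**Figure D4:**
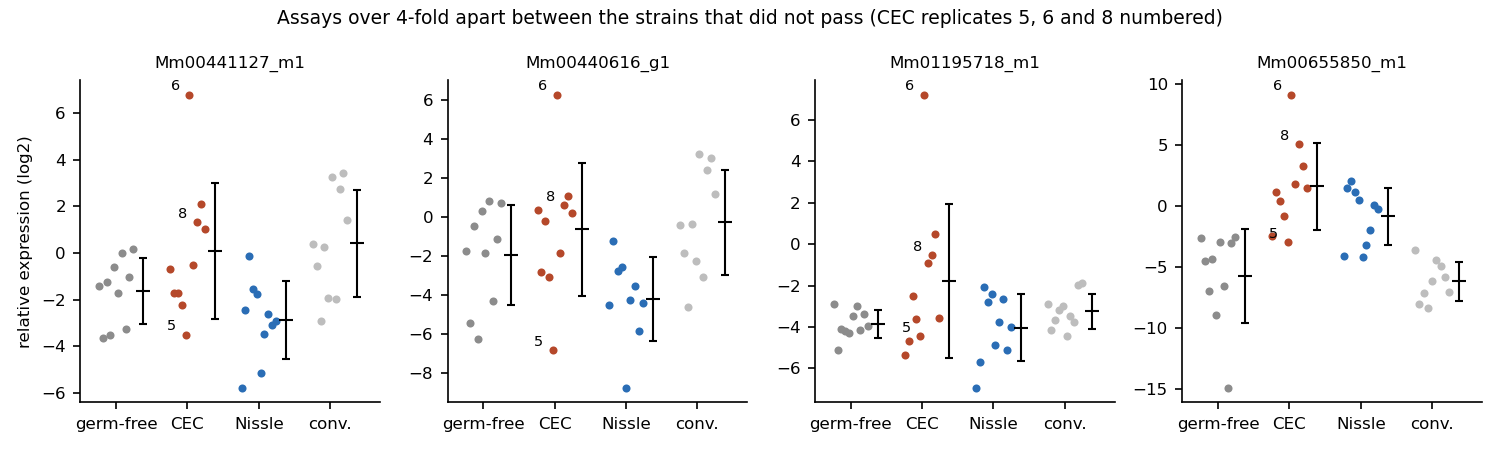
Relative expression (log2) of the 4 assays over 4-fold apart that did not pass, by group; each point is a sample, the bar is the group's mean and SD, and CEC replicates 5, 6 and 8 are numbered. CEC replicate 6 is the highest CEC sample in every panel, between 6.29 and 9.13.

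In Mm01614382_m1, CEC replicate 6 lay opposite to the other CEC samples. It stood at 4.8, while the other 9 CEC samples ran from -0.51 to 1.20 and Nissle samples from 0.71 to 3.59. With all samples the assay was at 0.82 ± 1.51 after CEC and 1.63 ± 0.855 after Nissle (SD, n = 10 each), a difference of -0.81 that did not pass (limma, adjusted p = 0.279). Without CEC replicate 6 the difference was -1.26, or 2.39-fold, and passed (limma, adjusted p = 0.0135), but not in a fit of 2 groups (0.0745). Nissle replicate 5, at 3.59 against 0.71 to 2.15 in the other Nissle samples, widens the difference and was kept. A fit without both samples was not run. Germ-free samples averaged 1.93 ± 0.558 and conventional samples 4.25 ± 0.526. This assay was singled out after its values had been seen.

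Beyond the 7 calls, 29 assays had an unadjusted p under 0.05 without passing, 17 higher and 12 lower after CEC. Their sizes ran from 1.25-fold to 12-fold with a median of 1.66-fold, and their adjusted p from 0.0754 to 0.279 (limma). By kind of assay, 29 of 179 with the suffix m1, 4 of 18 with s1, 2 of 15 with g1 and 1 of 2 with gH had an unadjusted p under 0.05, and all 7 calls carried m1. The precision depended on the level. The tested assays were split into 3 classes by mean Ct. In the class with the earliest Ct, from 14.5 to 21.4 cycles, the median standard error was 0.238 and 57 of 72 intervals lay within 2-fold. In the class with the latest, from 24.3 to 30.04 cycles, it was 0.454, only 21 of 72 intervals lay within 2-fold and 16 of the 23 differences over 2-fold were found. Calls numbered 2 of 72, 3 of 70 and 2 of 72 from the earliest to the latest class.

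Some samples stood apart from their group. The deviation of a sample was taken as its median absolute difference from the group's median over the 214 assays. It was 0.99 log2 units in Nissle replicate 8, against 0.25 to 0.39 in the other 9 Nissle samples, and this sample was the highest or lowest of its group in 129 assays. Among CEC samples it was 0.79 in replicate 6, 0.71 in replicate 9, 0.61 in replicate 8 and 0.42 in replicate 10, and 0.17 to 0.23 in the other 6. Without CEC replicates 6, 8 and 9 and Nissle replicate 8, 2 assays passed, Mm00500848_m1 and Mm01614382_m1 (limma, adjusted p = 0.0141 each), while Mm01191142_m1 was 1.77-fold lower after CEC and did not pass (0.0677). The median SD of an assay was 0.704 after CEC and 0.607 after Nissle, and 0.599 after CEC without replicate 6. The SD was higher after CEC in 124 of 214 assays, and in 102 without that sample. Nissle replicate 8 was kept in both counts, so the second leaves out a deviating sample on 1 side only.

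**Figure D5:**
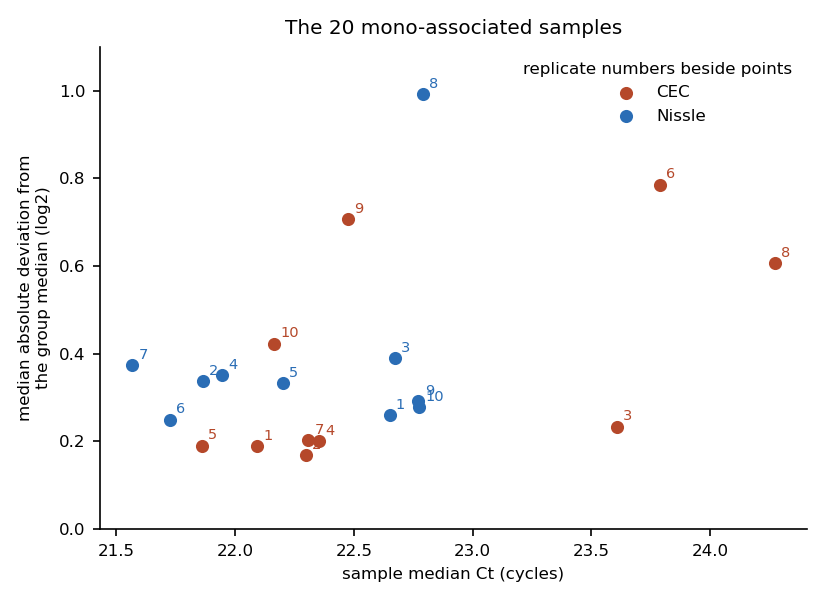
Deviation of each of the 20 mono-associated samples from its group (median absolute difference from the group median over 214 assays, log2) against its sample median Ct (cycles); numbers are replicates. Nissle replicate 8 deviates most, at 0.99, and CEC replicates 3, 6 and 8 have the latest medians, at 23.6 to 24.3 cycles.

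Template amount and the expression of the panel both enter a sample's median Ct, which cannot separate them. It averaged 22.7 ± 0.838 cycles after CEC and 22.3 ± 0.488 after Nissle (SD, n = 10 each), 0.425 cycles later after CEC (permutation test, two-sided, p = 0.185). CEC replicates 3, 6 and 8 had medians of 23.6, 23.8 and 24.3 cycles, and no other sample of either strain was past 22.8. Without these 3 samples Mm00500848_m1 and Mm01191142_m1 were 1.89-fold and 1.9-fold lower after CEC and passed (limma, adjusted p = 0.0404 and 0.042), and none of the other 5 calls did. The part of template amount in the results was not otherwise tested.

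CEC replicate 10 lay on the Nissle side of the midpoint between the group means in 6 of the 7 calls, and was the CEC sample farthest towards Nissle in 5. No other sample lay on the other strain's side in more than 4. These assays were chosen for their difference in the same samples, so this is a description. Without CEC replicate 10 the calls numbered 7 again, 6 of them among the original 7, and Mm04207460_m1 was not among them.

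Detection was compared in the 18 assays with an undetermined well in either strain. Nissle had more detected samples in 10 of them, CEC in 4, and both as many in the other 4. Undetermined wells made up 4.96% of wells after CEC (111 of 2240) and 4.15% after Nissle (93), with 15 each in CEC replicates 6 and 8, the highest of the 20 samples. CEC replicate 3 followed with 14, and these CEC samples also had the latest median Ct. Whether the 2 are linked was not tested. No assay passed (0 of 18; Fisher's exact test, two-sided, smallest adjusted p = 0.585). The only unadjusted p under 0.05 was that of Mm00656925_m1, detected in 5 of 10 CEC and 10 of 10 Nissle samples (Fisher's exact test, p = 0.0325). Its measured level, in the 5 CEC samples alone, leaves out the undetermined CEC samples. Why those wells were undetermined was not tested.

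Of the 10 assays that were not tested, 3 were undetermined in all 20 samples, which allows detection in up to 15% of such samples. Another 6 were measured in 0 to 4 CEC and 1 to 5 Nissle samples and undetermined in the rest. The tenth, Mm00440502_m1, had no undetermined well, but 8 of its 20 values were treated as filled in.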

How the data were processed

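RNA of colonic mucosa was extracted with the mirVana kit and read by TaqMan OpenArray PCR, per the labels' protocols. Values were deposited as raw threshold cycles (Ct), a log2 scale on which a lower value means more template, for 224 assays in 40 samples, and its header calls it a truncated example. No step between reading and deposit is given in the sources used here. A Ct of 40 was taken as undetermined. Another 156 deposited values equalled the mean of their group's other values within 2e-06 cycles (153) or of all but 1 of them within 1e-07 (3). They were treated as filled in and left missing as assay values, and made up 1.92% of CEC and 1.52% of Nissle values.

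For relative expression, an assay's Ct was subtracted from the median Ct of its sample, taken over the 203 assays without any 40. Filled-in values were kept in this median. The alternative normalizer of the 153 assays measured in all 40 samples holds none. The 214 assays with at least 5 measured samples in both strains were tested, 167 of them measured in all 20. The test was limma 3.58.1 in R 4.3.3 (lmFit and eBayes), fitted over all 4 groups with no block, two-sided, with Benjamini-Hochberg adjustment over the 214 assays and a threshold of 0.05. Permutation tests used 100000 resamples. Alternatives were other normalizers, other treatments of missing values, other filters, a fit of the 2 strains alone, a replicate block, sample weights, and samples left out. The fits were also run on simulated data with known shifts, independent samples and the same spread in all 4 groups. In the fit of 4 groups 25.6% of shifts of 0.5 log2 units were recovered, 69.1% of 1 and 92.5% of 2. In the fit of 2 groups these were 21.6%, 68.1% and 91.25%. Unequal spread between groups and deviating samples, as in these data, were not simulated, so the run does not test them.

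The comparison, the gene lists and the alternatives were chosen with earlier results of these data known. The lists and the cell type markers could not be matched, since no table pairs assays with genes. The naming rule then allows 2 assays in each direction, those with the smallest p past the threshold: Mm01191142_m1, Mm00500848_m1, Mm00482914_m1 and Mm00472200_m1. All others named were chosen after their values were seen. The number of samples limits the precision.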

Additional observations from a re-analysis of the deposited data

Results flagged for a closer look

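In groups of 10 samples, 28 sets of values were checked for a sample far from the others, and 7 held one. Chance gives about 1 in 20 for sets not chosen by their values; most of these assays were chosen by theirs, so that rate does not apply to the count. CEC replicate 6 was such a sample in 3 assays. It stood at -2.93 log2 units in Mm00549170_m1, where the other CEC samples ran from -1.09 to 0.81, at 7.22 in Mm01195718_m1 (others -5.35 to 0.47), and at 4.8 in Mm01614382_m1 (others -0.51 to 1.20). CEC replicate 10 stood at -3.89 in Mm00482914_m1, below the -2.55 to -1.30 of the other CEC samples.

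Among Nissle samples, replicate 8 stood at -0.93 in Mm00500226_m1 (others -0.06 to 0.91) and replicate 5 at 3.59 in Mm01614382_m1 (others 0.71 to 2.15). Nissle replicate 8 also had a median absolute deviation from its group's median of 0.992 log2 units over the 214 assays, against 0.25 to 0.39 in the other 9. Without that sample 3 assays passed in place of 7 (limma).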

How the results depend on the processing

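The direction of all 7 calls held under every alternative that was run, but these assays were chosen for their difference in the same samples. Leaving out a germ-free or conventional sample, or using the permutation test, cannot change that difference at all. The constant direction is therefore no separate test of the calls. The count of 7 was within 1.5 times of itself (5 to 8) without normalization, with the median of 153 assays or the mean of 203 as normalizer, with undetermined wells at 37.7 cycles, with Ct above 30 as undetermined, with filled-in values as deposited and with the other filters. It was 3 with the 10 most stable assays, 19 with sample quality weights, and 2 without Nissle replicates 4 and 5. In the fit of the 2 strains it was 0 (limma; an unadjusted p under 0.05 in 23 assays), in the permutation test 0 (29), and without CEC replicate 6 in the fit of 2 groups 0 (23). Settings added after the data were seen gave 12 in the fit of 2 groups with quality weights, 3 without CEC replicates 3, 6 and 8 and 0 for the same in the fit of 2 groups, and 2 without CEC replicates 6, 8 and 9 and Nissle replicate 8, with 0 in the fit of 2 groups. Leaving out 1 sample gave 2 to 7. The cause of these changes was not tested. With the replicate block 0 assays passed in limma (23 at an unadjusted p under 0.05), but the numbers give no pairing: the correlation of same-numbered samples ran from -0.24 to 0.42 over 10 pairs, 2 were over 0.1, and 1 Nissle sample correlated best with its own number. The median CEC minus Nissle difference over all assays was 0.03 log2 units, and moved to -0.38 without normalization and to 0.14 with the 10 most stable assays. No assay passed for detection under either limit (Fisher's exact test, 1 at an unadjusted p under 0.05 in each). Normalization to reference genes was not run. The median standard error was 0.238 in the assays with the earliest Ct and 0.454 in those with the latest; its cause was not tested.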

Other observations

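Some assays differed between the strains in their spread and not in the calls; they were chosen for this, so no test is given. Mm00505670_m1 had an SD of 3.44 log2 units after CEC and 0.77 after Nissle, and Mm00509849_m1 1.81 and 0.41. Without CEC replicate 6 these CEC values were 3.43 and 1.92. The opposite held in Mm01336189_m1, with an SD of 0.476 after CEC and 1.80 after Nissle, and in Mm00724513_m1, with 0.668 and 1.86.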
